A study of Mus musculus with 8 samples.

Results

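Interferon-induced genes were followed across the hypothalamus and liver of mice without fibromodulin, a small proteoglycan of the extracellular matrix encoded by Fmod. The list held 37 genes, taken by symbol from the annotation of an Illumina bead array, and 36 of them had a probe, with 59 of the array's 25697 probes. Ifi44, an interferon-induced protein, had no probe under its symbol. Signals above background in enough arrays for a test were obtained for 26 of the 36 genes, against 9456 genes tested of 16593 with a symbol. The arrays held total RNA of male Fmod knockout mice on the C57BL/6 background at 13 weeks of age, as 4 hypothalamus and 4 liver arrays. Every array came from a knockout animal, and the wild-type controls of the study are not analysed here, so the comparison below is between tissues and says nothing about the knockout. The labels number the arrays of each tissue from 1 to 4 and leave unstated whether a number stands for 1 mouse.

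Interferons are secreted proteins that put cells on alert against viruses and other intracellular microbes. Type I interferons act through a receptor made of IFNAR1 and IFNAR2 and switch on genes through a complex with STAT2 and IRF9 that binds a DNA element called the interferon-stimulated response element (ISRE). Interferon gamma, made mainly by T and NK cells, acts through IFNGR1 and IFNGR2, and many of its targets carry a gamma-activated site (GAS). Many genes answer to both, so the division used here, Ifit, Oas and Mx genes as type I targets and Cxcl9, Gbp2, Gbp3, Igtp and Irf1 as interferon-gamma targets, is one of emphasis. In liver, Kupffer cells, the resident macrophages, and in brain, microglia are well-known responders.

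Promoter sequence of 6 members is shown to let these elements be seen: Igtp, Gbp2 and Irf1 are interferon-gamma targets, and Isg15, Rsad2 and Bst2 lie outside both classes. RefSeq windows reaching from 250 bases before to 50 bases after each start (build GRCm38.p6) matched 29 of the 37 genes. Each stretch below runs 5′ to 3′ along the gene over the 140 bases before the start, with the letters of a match in capitals, read on both strands: GAAA, any 2 bases and GAAA for the ISRE, and TTC, any 3 bases and GAA for the GAS. Isg15 lies on the minus strand at chr4:156200819-156200958, Rsad2 on the minus strand at chr12:26456453-26456592 and Bst2 on the minus strand at chr8:71537473-71537612. Igtp lies on the plus strand at chr11:58199416-58199555, Gbp2 on the plus strand at chr3:142620523-142620662 and Irf1 on the plus strand at chr11:53769874-53770013.
Isg15: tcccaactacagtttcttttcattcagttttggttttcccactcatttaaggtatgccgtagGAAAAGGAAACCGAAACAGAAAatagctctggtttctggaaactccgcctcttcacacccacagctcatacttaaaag
Rsad2: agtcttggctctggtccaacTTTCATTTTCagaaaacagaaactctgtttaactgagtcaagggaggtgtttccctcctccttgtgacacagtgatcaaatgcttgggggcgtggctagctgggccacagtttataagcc
Bst2: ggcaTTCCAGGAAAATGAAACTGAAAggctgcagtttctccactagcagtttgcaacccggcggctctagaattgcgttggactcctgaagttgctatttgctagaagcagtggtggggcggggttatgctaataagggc
Igtp: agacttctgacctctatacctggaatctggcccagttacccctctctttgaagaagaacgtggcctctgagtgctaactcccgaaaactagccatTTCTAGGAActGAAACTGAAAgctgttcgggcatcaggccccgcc
Gbp2: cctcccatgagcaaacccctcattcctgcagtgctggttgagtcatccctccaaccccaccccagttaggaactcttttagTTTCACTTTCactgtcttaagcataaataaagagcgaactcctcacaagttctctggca
Irf1: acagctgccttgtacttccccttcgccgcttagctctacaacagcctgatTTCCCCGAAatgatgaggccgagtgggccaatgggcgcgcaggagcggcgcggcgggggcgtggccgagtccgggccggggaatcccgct
Isg15 carried 3 overlapping ISRE matches, Rsad2 and Gbp2 1 each on the opposite strand, and Irf1 a GAS match alone. Bst2 carried 2 overlapping ISRE matches, the first of which overlapped its GAS match, and Igtp 1 of each element side by side. Over whole windows, an ISRE match was present in 17 of 29 members (58.6%), against 3.99% of 27025 genes with a window, and a GAS match in 8 of 29 (27.6%), against 9.55%. Both classes held both elements: an ISRE match was found in 4 of 7 type I targets and 3 of 5 interferon-gamma targets, and a GAS match in 2 of 7 and 2 of 5. Cxcl9 had neither in its window. A match describes letters in a window and is not evidence of binding.

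The tissues were as labelled by their markers. The hypothalamic neuropeptide gene Pmch was detected on 4 of 4 hypothalamus arrays and on 0 of 4 liver arrays, while the plasma protein genes Hpx and Ahsg were detected on 0 of 4 hypothalamus arrays and 4 of 4 liver arrays. The neuronal gene Snap25 was detected on no array, although 3 other neuronal genes were tested and all 3 were higher in hypothalamus. One of 2 Fmod probes was detected on 1 of 4 hypothalamus arrays, and neither on a liver array. The sources used here do not say whether these probes lie in the deleted part, so they do not check the genotype. Detected probes numbered 13285 to 13753 per hypothalamus array and 10307 to 10828 per liver array. Correlations between arrays (Pearson's r over probes) were 0.987 to 0.993 within hypothalamus and 0.976 to 0.984 within liver.

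Most interferon-induced genes gave more signal in liver. Values below are normalized log2 intensities, a scale on which 1 unit is a 2-fold difference, and a difference is hypothalamus minus liver. Levels of different probes are not compared, since probes differ in brightness. With limma and Benjamini-Hochberg adjustment over all tested probes, 1 of the 26 tested members was higher in hypothalamus, 22 were higher in liver, and 3 (Oasl2, Gbp2 and Irgm1) did not pass an adjusted p of 0.05. Among all 9456 tested genes 43.1% were higher in hypothalamus and 37.3% higher in liver, 80.4% in either direction. The detection filter admitted 8 of the 22 with signal on part or none of the hypothalamus arrays. Among the 18 members detected on all 8 arrays, 1 was higher in hypothalamus (34.2% of such genes) and 14 in liver (45.3%). Tested against a 2-fold difference, 1 member was higher in hypothalamus and 18 in liver, where the shares of all genes were 23.6% and 18.9% (42.6% either way). The 18 fell to 6 in the authors' normalized values and to 9 without background correction. The arrays of the tissues did not overlap for 23 members, of which 22 were higher in liver, whereas 75.6% of all genes did not overlap and 34.5% did so with liver higher. The median difference was -2.28 over the tested members and 0.11 over all tested genes, and over the members it was -0.89 in the authors' normalized values and -1.12 without background correction. In whole tissue, fewer cells of a type and less RNA per cell cannot be told apart.

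**Figure D1:**
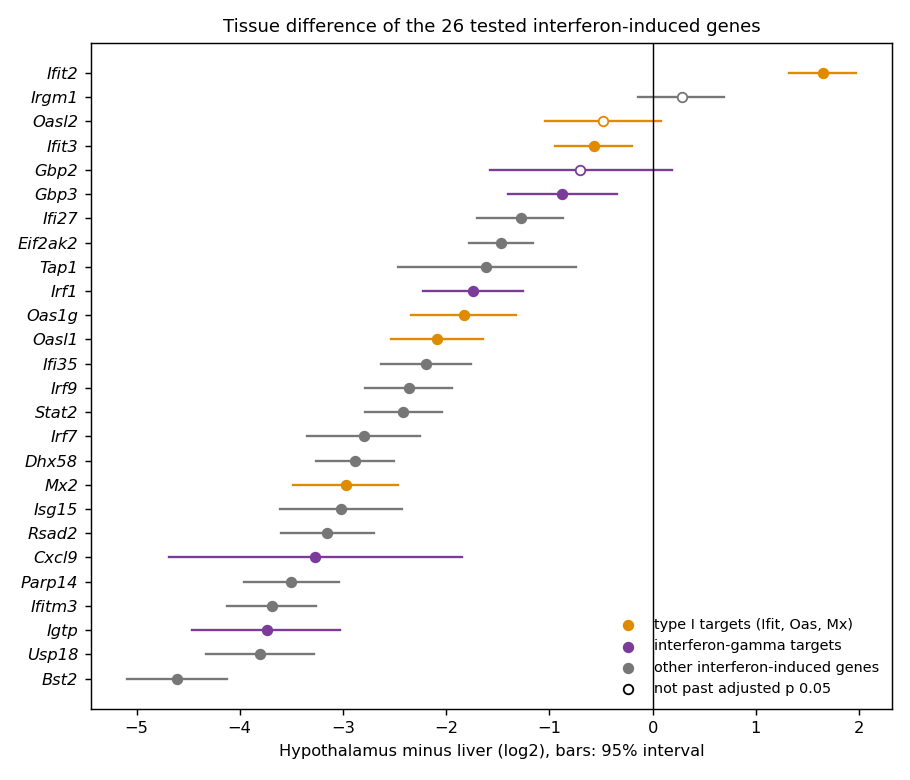
Difference between hypothalamus and liver (log2, hypothalamus minus liver) for each tested interferon-induced gene, as points with 95% intervals. Ifit2 stands alone to the right of 0 with an interval clear of it, and Bst2 lies farthest left at -4.61.

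Before any test, detection separated the tissues too. Of the 36 genes with a probe, 18 were detected on all 8 arrays (50%, against 35.2% of all genes). No member was detected on all hypothalamus arrays and no liver array, the pattern of 9.47% of all genes, and 1 member, Irf7, was detected on all liver arrays and no hypothalamus array (2.19% of all genes). All 4 hypothalamus arrays detected 18 members (50%, against 51.1% of all genes) and all 4 liver arrays 25 (69.4%, against 39.3%). Another 6 members were detected on all liver arrays and on part of the hypothalamus arrays: Mx2 on 2, Oas1g, Oasl1 and Cxcl9 on 1 each, and Ifi35 and Dhx58 on 3 each. Ifit1, Mx1, Oas1a, Oas2, Ifih1 and Xaf1 were detected on no array (16.7% of the members, against 30.7% of all genes). Mx1 in C57BL/6 mice is known to carry a deletion that inactivates it. Ddx58, Cxcl10, Iigp1 and Trim25 were detected on 3 or fewer arrays and were not tested, and 4 of the 10 untested members are type I targets.

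**Figure D2:**
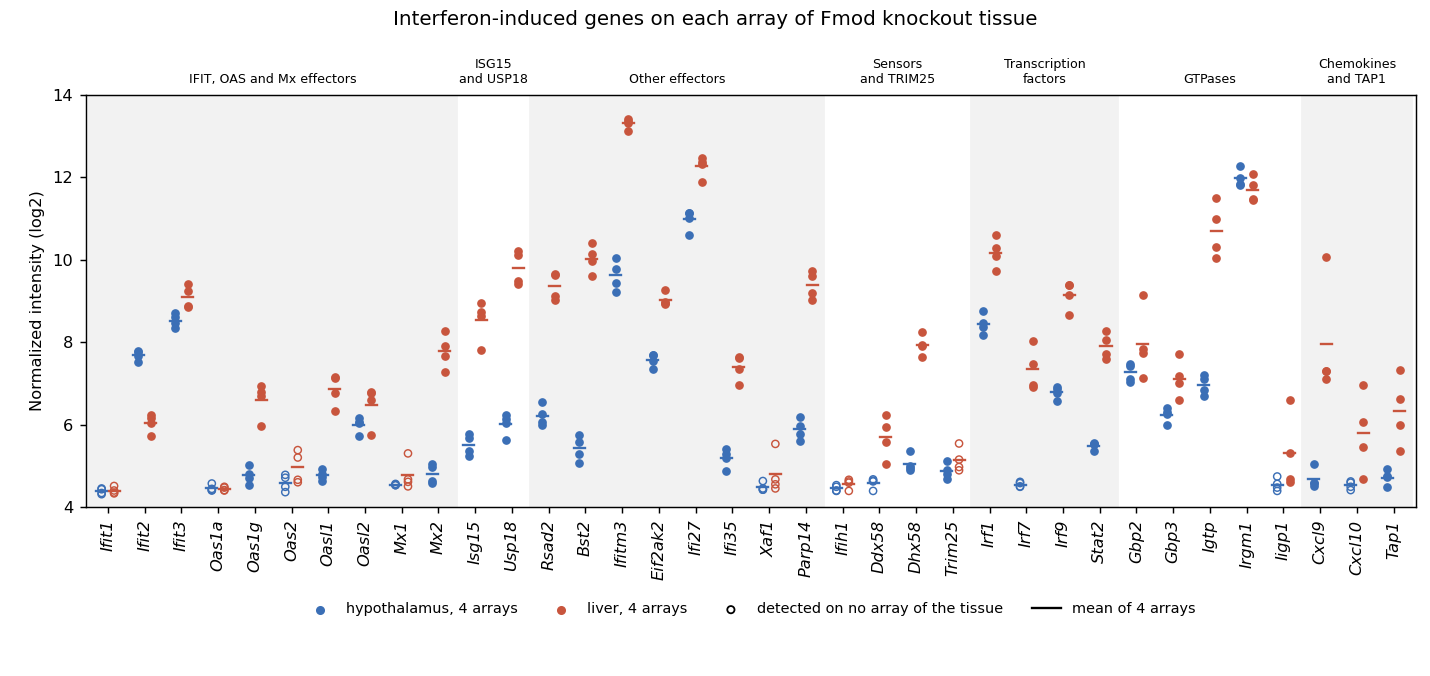
Normalized log2 intensity of every member with a probe on each of the 4 hypothalamus and 4 liver arrays; a filled circle marks a gene detected on at least 1 array of that tissue. Levels compare between tissues within a gene only. Liver points lie above hypothalamus points for most detected genes.

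Among the RNA-binding effectors and Mx GTPases, the type I targets, 6 of 10 were tested, and 1 was higher in hypothalamus, 4 in liver and 1 not called. Ifit2, whose family of proteins binds viral RNA, read 7.78, 7.52, 7.65 and 7.77 in hypothalamus and 6.23, 6.15, 6.04 and 5.72 in liver. All hypothalamus arrays were above all liver arrays, by 1.65 ± 0.13 (SE; 3.13-fold, limma adjusted p = 1.27e-06). A second Ifit2 probe, not detected in liver, was higher in hypothalamus by 1.17 (adjusted p = 0.000271 by limma), at least 1.25-fold. This bound sets the hypothalamus mean against the lowest detected signal of each liver array, or the probe's own where higher. The bounds below, for probes not detected on all arrays of a tissue, are made the same way. Such bounds hold for the ratio of the observed means on the main normalized values and are not confidence limits. Under other processing a fold can lie below its bound. Ifit3, of the same family, read 8.45, 8.70, 8.61 and 8.33 in hypothalamus and 8.88, 9.42, 9.24 and 8.85 in liver, a difference of -0.57 ± 0.15 (limma adjusted p = 0.00635). That sign depends on scaling: the difference was 0.00 with median scaling and 0.08 in the authors' normalized values, and other Ifit3 probes gave -0.34 and 0.42, neither called. Probes of Ifit3 may also read the near-identical Ifit3b.

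Mx2, a gene of the Mx GTPase family, read 4.97, 5.04, 4.59 and 4.62 in hypothalamus and 7.91, 8.26, 7.67 and 7.28 in liver. Its arrays did not overlap, and with detection on 2 of 4 hypothalamus arrays Mx2 was at least 7.08-fold higher in liver (limma adjusted p = 4e-07). The Mx2 difference of -2.97 became -0.98 in the authors' normalized values and -1.17 without background correction. The oligoadenylate synthetase genes, whose products sense double-stranded RNA, divided: Oas1g and Oasl1, each detected on 1 of 4 hypothalamus arrays, were at least 3.16-fold and 3.84-fold higher in liver (limma adjusted p = 1.8e-05 and 2.26e-06), and Oas1a and Oas2 were not detected. Oas1a and Oas1g are close relatives, and a second Oasl1 probe, undetected in hypothalamus, was at least 3.99-fold higher in liver. The other probes of Oas1g, and another of Oasl1, were detected on no array, so the Oas1g call rests on 1 probe. Differences of -1.83 for Oas1g and -2.09 for Oasl1 shrank to -0.33 and -0.45 in the authors' normalized values. Without background correction they were -0.57 and -0.67. Oasl2 averaged 5.99 ± 0.19 in hypothalamus and 6.47 ± 0.50 in liver (SD, n = 4 arrays each), a difference of -0.48 with limma adjusted p = 0.0757. Oasl2 had no settled direction: it was called higher in liver without liver replicate 4 (-0.73, limma adjusted p = 0.000791) and with cyclic loess (-0.59, 0.0154), but the difference was 0.27 with median scaling (0.237) and 0.21 in the authors' normalized values (0.0585).

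Isg15 encodes a ubiquitin-like protein attached to other proteins after interferon, and Usp18 encodes the protease that removes it. Isg15 read 5.77, 5.35, 5.68 and 5.24 in hypothalamus and 8.74, 8.63, 8.94 and 7.80 in liver (-3.02 ± 0.24, 8.10-fold, limma adjusted p = 1.14e-06). Usp18 read 6.13, 6.22, 5.62 and 6.04 in hypothalamus and 9.49, 10.11, 10.22 and 9.41 in liver (-3.80 ± 0.21, 14-fold, limma adjusted p = 7.57e-08). Liver lay above hypothalamus on every array for both genes, and in the other probes of Usp18 the difference was -3.08 and -2.26.

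Of 9 other antiviral effectors, 8 had a probe, 7 were tested and 7 were higher in liver. Bst2, or tetherin, which holds budding viruses at the cell surface, read 5.06, 5.29, 5.58 and 5.75 in hypothalamus and 10.40, 10.13, 9.61 and 9.96 in liver. Its difference of -4.61 ± 0.20 (24.4-fold, limma adjusted p = 9.69e-09) was the largest of the tested members. Ifitm3, which blocks viral entry, read 9.22, 9.78, 10.04 and 9.43 in hypothalamus and 13.13, 13.31, 13.37 and 13.42 in liver (-3.69 ± 0.18, 12.9-fold, limma adjusted p = 1.95e-08), with relatives of like sequence that its probe may also read. Parp14, an ADP-ribosyltransferase, read 5.78, 6.18, 5.97 and 5.60 in hypothalamus and 9.19, 9.72, 9.61 and 9.01 in liver (-3.50 ± 0.19, 11.3-fold, limma adjusted p = 5e-08).

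The antiviral enzyme viperin is encoded by Rsad2, which read 6.06, 6.54, 5.99 and 6.25 in hypothalamus and 9.12, 9.64, 9.63 and 9.03 in liver (-3.15 ± 0.18, 8.87-fold, limma adjusted p = 9.97e-08). Eif2ak2 encodes PKR, which stops translation on double-stranded RNA, and differed by -1.47 ± 0.13 (2.77-fold, limma adjusted p = 2.02e-06). Ifi35 differed by -2.20 ± 0.18 (limma adjusted p = 1.25e-06). Ifi27 differed by -1.28 ± 0.17 (2.44-fold, limma adjusted p = 5.64e-05) and did not pass the test against 2-fold.

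Of 4 sensor genes, 1 passed the detection filter. Of Ifih1, Ddx58 and Dhx58, which bind viral RNA, and Trim25, a ligase for the Ddx58 product, Dhx58 alone was tested, and it differed by -2.88 ± 0.15 (7.37-fold, limma adjusted p = 4.81e-08). Among the transcription factors, 4 of 4 were higher in liver. Irf7, which amplifies type I interferon production, read 4.61, 4.50, 4.58 and 4.49 in hypothalamus, where it was not well above background, and 6.92, 8.02, 7.47 and 6.96 in liver, at least 5.44-fold higher in liver (limma adjusted p = 1.2e-06). The Irf7 difference of -2.8 became -0.81 in the authors' normalized values and -1.0 without background correction. Stat2 and Irf9, partners in the ISRE-binding complex, differed by -2.42 ± 0.15 and -2.36 ± 0.17 (limma adjusted p = 1.91e-07 and 5.81e-07). Irf1, whose product activates many interferon-gamma targets, read 8.45, 8.75, 8.36 and 8.16 in hypothalamus and 10.27, 10.60, 10.08 and 9.72 in liver (-1.74 ± 0.20, 3.34-fold, limma adjusted p = 1.63e-05). Other tested Irf1 probes differed by -1.73, -0.75 and -0.43, the last not called.

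The interferon-gamma targets also included GTPases that attack vacuoles holding microbes. Igtp read 7.11, 7.20, 6.84 and 6.68 in hypothalamus and 10.30, 11.49, 10.99 and 10.03 in liver (-3.74 ± 0.29, 13.4-fold, limma adjusted p = 9.8e-07), and liver was above hypothalamus on every array. Gbp2 read 7.11, 7.47, 7.43 and 7.04 in hypothalamus and 7.83, 9.14, 7.74 and 7.12 in liver, and the groups overlapped. Its difference of -0.70 ± 0.36 was not called (limma adjusted p = 0.101), and the call changed without liver replicate 4 (-0.98, limma adjusted p = 0.0198) and with the replicate number as a block (-0.70, 0.0389). With median scaling the Gbp2 difference was 0.06 (limma adjusted p = 0.89), and in the authors' normalized values 0.04 (0.891). Gbp3 read 6.25, 6.40, 6.31 and 6.00 in hypothalamus and 7.0, 7.70, 7.17 and 6.59 in liver (-0.88 ± 0.21, limma adjusted p = 0.00357). It was not called with median scaling (-0.07, adjusted p = 0.788 by limma) and was 0.02 in the authors' normalized values, and Gbp2 and Gbp3 are close relatives.

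Irgm1, a GTPase related to Igtp, differed by probe. Its brightest probe averaged 11.97 ± 0.22 in hypothalamus and 11.69 ± 0.30 in liver (SD, n = 4 arrays each), a difference of 0.28 that was not called (limma adjusted p = 0.163), and 0.40 without liver replicate 2 (limma adjusted p = 0.0416). A second Irgm1 probe differed by -2.95 (limma adjusted p = 6.76e-08), and the sources used here do not place the probes on transcripts. Tap1, which moves peptides for antigen presentation, was detected on 1 of 4 hypothalamus arrays and 3 of 4 liver arrays. It was higher in liver (limma adjusted p = 0.00192), with a bound on means of 2.67-fold, or 2.12-fold without liver replicate 2. Tap1 did not pass the test against 2-fold (treat adjusted p = 0.133). Its call was lost in the authors' normalized values (-0.28, adjusted p = 0.082 by limma). Cxcl10, a chemokine that draws activated T cells, was detected on 0 of 4 hypothalamus arrays and 2 of 4 liver arrays. Iigp1, another GTPase of the Igtp family, was detected on 0 of 4 and 1 of 4.

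Cxcl9, the chemokine that draws activated T cells after interferon gamma, differed most of the members between arrays of one tissue. It read 4.52, 5.04, 4.58 and 4.57 in hypothalamus and 7.30, 10.07, 7.11 and 7.31 in liver, and the deposited signal was 934.5 in liver replicate 2 and 199.8 to 225.7 in the other liver arrays. Liver replicate 2 stood apart, although all liver arrays were above all hypothalamus arrays. With detection on 1 of 4 hypothalamus arrays, Cxcl9 was at least 8.01-fold higher in liver (limma adjusted p = 0.000471), and at least 4.90-fold without liver replicate 2 (limma adjusted p = 3.65e-07). Over all arrays its difference of -3.27 became -1.24 in the authors' normalized values and -1.42 without background correction.

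The classes were set side by side in detection, tissue difference and spread. Detection on all arrays of the tissue was reached in hypothalamus by 3 of 10 type I targets and 4 of 5 interferon-gamma targets, and in liver by 6 of 10 and 5 of 5. The median tissue difference was -1.20 over 6 type I targets and -1.74 over 5 interferon-gamma targets, against -0.12 and -1.0 in the authors' normalized values. In hypothalamus, the median SD over arrays was 0.16 for 3 type I targets, 0.23 for 4 interferon-gamma targets and 0.16 for 8476 genes detected on all its arrays. In liver, it was 0.40 for 6 type I targets (range 0.22 to 0.50), 0.66 for 5 interferon-gamma targets (range 0.37 to 1.42) and 0.18 for 6517 genes. The 6517 genes were not matched for intensity, and dim genes often had larger SDs, such as 0.37 and 0.41 at a liver mean of 6.75. Ifit2, Oas1g, Oasl1 and Oasl2 averaged 6.03 to 6.85 in liver. Whether the SDs of the classes exceed those of genes of like intensity was not tested. Without liver replicate 2, the liver medians were 0.29 for type I targets and 0.30 for interferon-gamma targets, so the gap between the classes in liver depended on that array. An SD above 0.5 was found in hypothalamus for 0 of 18 members and 2.84% of all genes, and in liver for 5 of 25 members (Isg15, Irf7, Gbp2, Cxcl9 and Igtp) and 3.59% of all genes. Cxcl9 ranked 5th of 6517 by liver SD, Gbp2 36th and Igtp 69th, while Ifitm3 ranked 4708th with an SD of 0.12. From the lowest to the highest liver array, signal differed 7.79-fold for Cxcl9, 4.06-fold for Gbp2, 2.74-fold for Igtp and 2.21-fold for Isg15.

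**Figure D3:**
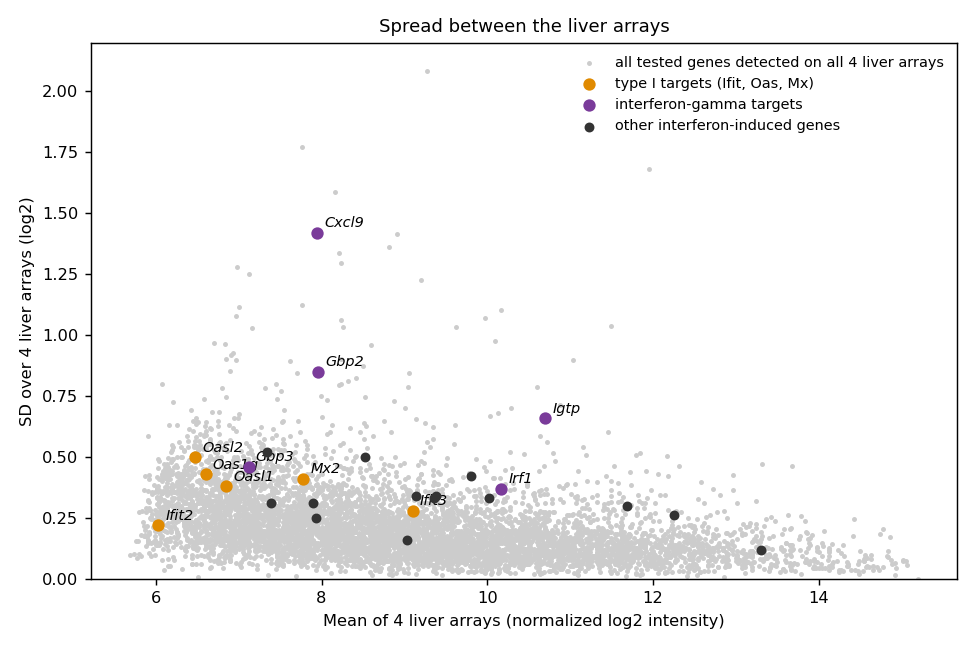
Standard deviation over the 4 liver arrays against mean normalized log2 intensity, for all genes detected on every liver array and for the members by class. Cxcl9 (SD 1.42), Gbp2 and Igtp lie far above the bulk of genes, whose median SD was 0.18.

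The arrays that were high or low were largely shared among interferon-gamma targets. Liver replicate 2 held the highest of the 4 liver values for 5 of 5 interferon-gamma targets, where it did so for 19.4% of all genes, and liver replicate 4 the lowest for 4 of 5, against 26.4%. Their median deviations from the liver mean were -0.13, 0.79, -0.08 and -0.64 in replicates 1 to 4. In hypothalamus, replicate 2 was highest for 4 of 4 (23.5% of all genes) and replicate 4 lowest for 4 of 4 (22.5%), but the median deviations were smaller, at 0.02, 0.22, 0.00 and -0.26. Type I targets in liver were highest in replicate 2 for 3 of 6, in replicate 4 for 2 and in replicate 1 for 1 (32.8% and 26.6% of all genes), and lowest in replicate 4 for 4 of 6, with median deviations of 0.16, 0.25, 0.06 and -0.28. Over all members in liver, replicate 2 was highest for 13 of 25 and replicate 4 lowest for 15 of 25. Isg15, Usp18, Stat2, Eif2ak2, Dhx58 and Ifi35 peaked in liver replicate 3 instead, as did 21.2% of all genes. The counts over all members depended on scaling. With median scaling, liver replicates 2 and 3 were each highest for 10 of 25, and replicate 4 was lowest for 11 and replicate 1 for 10.

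**Figure D4:**
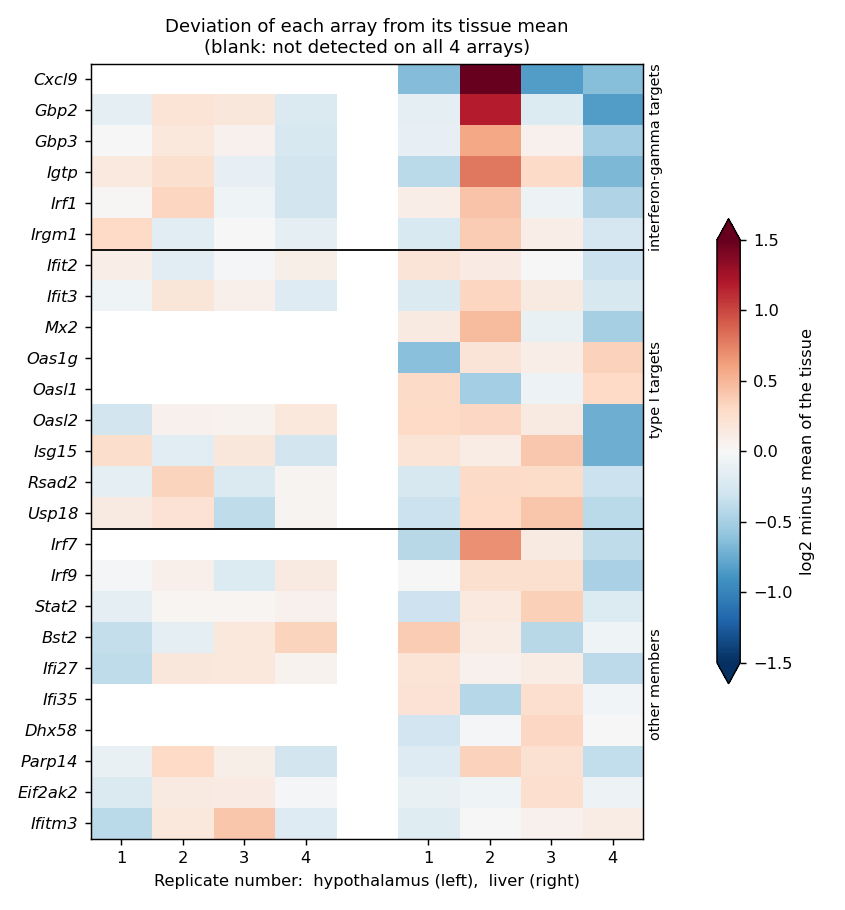
Deviation of each array from its tissue's mean (log2, colour limited to 1.5 in either direction) for each member detected on all arrays of the tissue, with Irgm1 placed among the interferon-gamma targets and Isg15, Rsad2 and Usp18 among the type I targets for display. Liver replicate 2 is high for Cxcl9, Gbp2, Gbp3, Igtp and Irf1, and liver replicate 4 is lowest for 15 of 25 members (11 with median scaling).

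Several macrophage markers were highest in liver replicate 2, but the Kupffer cell sum was also high in replicate 1. The summed normalized level of 6 Kupffer cell genes was 148.5 to 168.4 over the hypothalamus arrays and 1876, 2204, 1278 and 1357 in liver replicates 1 to 4. Such a sum leans toward its brightest probes, and undetected genes add background to it. Of these 6 genes, 4 were detected on no hypothalamus array. Clec4f, a Kupffer cell lectin, Vsig4 and Adgre1, the 3 detected on all liver arrays, were all highest in liver replicate 2. Clec4f read 9.43, 9.81, 9.10 and 9.18 in liver, and Vsig4 read 9.92, 9.95, 9.08 and 9.07, nearly level in replicates 1 and 2. Marco, detected on 3 of 4 hypothalamus arrays and 2 of 4 liver arrays, read 5.86 in liver replicate 4 and 5.85 in liver replicate 2, and Cd5l was detected nowhere. Of the 6 Kupffer cell genes, 4 were tested and 4 were higher in liver (37.3% of all tested genes), 2 of them in the authors' normalized values. Marco, 1 of the 4, differed by -0.57 (limma adjusted p = 0.045), and its hypothalamus and liver arrays overlapped. The summed level of microglia and macrophage genes was 609.7 to 711.6 in hypothalamus and 386.8 to 598.4 in liver, the last in replicate 2. These genes divided: of 5 tested, 3 were higher in hypothalamus (Cx3cr1, Tmem119 and Trem2) and 2 in liver (Aif1 and C1qa). Among all tested genes the shares were 43.1% and 37.3%. For T and NK cell genes the sum was 341.1 to 372.6 in hypothalamus and 578.5, 662.3, 549.0 and 679.6 in liver. Of these 13 genes, 8 were detected on no hypothalamus array, and 6, including Cd4 and Cd8a, were detected nowhere. Endothelial genes summed to 1742 to 1896 in hypothalamus and to 964.2, 703.5, 879.5 and 821.0 in liver, lowest in replicate 2. They divided too: of 4 tested, 2 were higher in hypothalamus (Flt1 and Ly6c1), 1 in liver (Tek) and 1, Pecam1, was not called. The part of these cell types in the interferon-induced pattern was not tested.

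The wider pathway was read from a list of 41 ligand, receptor, signalling, induction and regulator genes, of which 35 had a probe and 23 were tested. Of the 23, 4 were higher in hypothalamus, 16 higher in liver and 3 not called, with a median difference of -1.07. The split depended on scaling, since the authors' normalized values gave 7 and 9. Ifng, Ifnb1, Ifna2 and Ifna4 were detected on no array, and Ifna1, whose probe may read other members of its gene family, was higher in liver (-1.05, limma adjusted p = 0.00287), a call lost in the authors' normalized values (-0.04, adjusted p = 0.678 by limma).

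Of the receptor genes, Ifnar2 was higher in liver (-1.38, limma adjusted p = 2.38e-05), a call lost in the authors' normalized values (-0.16, adjusted p = 0.0858 by limma). Ifngr1 differed by -0.33 (limma adjusted p = 0.0411) and Ifngr2 by -0.21 (limma adjusted p = 0.207). Both were called higher in hypothalamus with median scaling, at 0.50 and 0.63 (limma adjusted p = 0.00593 and 0.00351). The same held in the authors' normalized values, at 0.32 and 0.38 (limma adjusted p = 0.00218 and 0.00108). Il10rb differed by 0.17 (limma adjusted p = 0.49), and by 0.28 in the authors' normalized values (limma adjusted p = 0.00341). In those values 3 of 4 tested receptors were higher in hypothalamus. Ifnar1 was detected on no array and Ifnlr1 on 1 hypothalamus array. The largest differences toward liver among pathway genes detected on all arrays were in Ptpn6, a phosphatase that dampens cytokine signalling (-4.0, limma adjusted p = 2.13e-09), Mavs, the adaptor of the RNA sensors (-3.02, 6.49e-09), and Myd88, the adaptor of most Toll-like receptors (-2.40, 5.21e-09). Toward hypothalamus they were in Adar, which edits double-stranded RNA (2.81, limma adjusted p = 1.4e-07), Pias1, a SUMO ligase (0.98, 7.46e-06), and Jak2, a kinase of the interferon-gamma receptor (0.34, 0.0157). These 6 kept their sign with each scaling tried.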

How the data were processed

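Total RNA from each tissue was hybridised to single-colour Illumina bead arrays, and the deposited table gives an intensity and, for each probe on each array, a p-value of detection, per the file headers. A separate table of intensity normalized by the authors was used as an alternative. The submitters' processing notes name lumi 2.10.0 and R 2.15.0, whose roles are not stated there. Of the table's columns, 0 belonged to other samples.

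Signals were corrected and quantile-normalized with neqc (offset 16) in limma 3.58.1 (R 4.3.3), and the test, which took probes detected (p under 0.05) on 4 or more of 8 arrays, was run with lmFit and eBayes, or with treat at 2-fold. Benjamini-Hochberg adjustment covered all tested probes. The brightest probe on average over 8 arrays stood for each gene, and every listed member is named. Of the pathway list, all receptors are named, with up to 3 called genes in each direction among those detected on all arrays. Gene symbols came from the platform annotation, and promoters from RefSeq (GRCm38.p6). The fits were tested on simulated data. The members and lists were chosen with earlier results of these data known. The series text gives 4 mice but no label ties an array to a mouse, so p-values measure the spread between arrays, which may be technical, and 4 arrays per tissue limit the precision. Alternatives covered scaling, background correction, the detection filter, the probe rule, the lists, the replicate number as a block and each array left out.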

Additional observations from a re-analysis of the deposited data

Results flagged for a closer look

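In 3 of 43 groups of 4 arrays tested, 1 array stood farther from the others than Dixon's 95% critical value of 0.829 allows, where chance gives about 1 in 20 groups. Cxcl9 in liver replicate 2 read 10.07, against 7.11 to 7.31 in the other liver arrays (gap over range 0.934). Oasl2 in liver replicate 4 read 5.74, against 6.60 to 6.78 (0.830). Eif2ak2 in liver replicate 3 read 9.27, against 8.92 to 8.97 (0.867).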

How the results depend on the processing

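Of the 26 tested members, 20 kept their direction and side of the threshold under every alternative tried. Median scaling and the authors' normalized values moved the median of all tested probes to 0.49 and 0.39, against 0.07. Ifit3 was 0.00 with median scaling (limma adjusted p = 0.982), and the difference was 0.08 in the authors' normalized values (0.514), where Gbp3 was 0.02 (0.896). The median type I difference was -0.70 with median scaling, -0.12 in the authors' normalized values, -0.51 without background correction, -0.43 without a detection filter, -0.48 for genes detected on all 8 arrays and -2.09 with wider lists. The interferon-gamma difference was -1.0 in the authors' normalized values and -1.16 as a mean of probes. Genes beyond 2-fold in liver numbered 6 in the authors' normalized values, 9 without background correction (0 in hypothalamus) and 11 for genes detected on all 8 arrays, where 14 were higher in liver. Median SDs of type I targets were 0.09 in hypothalamus and 0.19 in liver in the authors' normalized values, 0.07 and 0.17 without background correction, 0.28 in liver for genes detected on all 8 arrays and 0.22 in hypothalamus with wider lists. Interferon-gamma SDs in hypothalamus were 0.14, 0.11 and 0.18 in the authors' normalized values, without background correction and as a mean of probes. The cause of these shifts was not tested.

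Leaving out 1 array at a time gave 1 to 2 members higher in hypothalamus, 22 to 24 in liver, 1 to 1 beyond 2-fold in hypothalamus and 18 to 20 in liver. Median differences ran from -1.32 to -1.12 for type I and from -1.89 to -1.60 for interferon-gamma targets. Median SDs ran from 0.13 to 0.19 in hypothalamus and 0.29 to 0.48 in liver for type I targets, and from 0.19 to 0.25 and 0.30 to 0.77 for interferon-gamma targets. With the replicate number as a block, 1 member was higher in hypothalamus and 23 in liver, the added one being Gbp2 (-0.70, limma adjusted p = 0.0389). Same-numbered arrays deviated together with r of 0.116, 0.095, 0.030 and 0.115, and each hypothalamus array matched its own number best, a hint of pairing. Not all pairs passed 0.1 and no label ties a number to a mouse, so the main fit did not take the numbers as pairs. Pairing is thus neither established nor excluded. Under 4 other value sources, an alternative chosen after seeing the data, the median deviation in liver replicate 2 ran from 0.75 to 0.91 for interferon-gamma targets and from 0.09 to 0.21 for type I targets, and in liver replicate 4 from -0.73 to -0.49 and from -0.27 to -0.15. Probes near background limit what is seen of the type I targets.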
